A study of Schizosaccharomyces pombe with 6 samples.

Results

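The mRNAs described here encode 10 proteins, 9 of the machinery by which growing fission yeast recognise meiotic transcripts and hand them to the nuclear exosome, and the large subunit of the nuclear cap-binding complex. The genes are mmi1, erh1, red1, mtl1, red5, iss10, rmn1, pab2, nrl1 and cbc1. They were chosen by name, from the gene names in the authors' deposited table, and make up 10 of the 6988 features counted. All 10 passed the filter on low counts, and their counts ranged from 685 to 4255 per library. The data are stranded poly(A)+ RNA-seq of Schizosaccharomyces pombe cells from log-phase cultures in YES, a rich medium. The control strain, AGP257, is h- (one of the haploid mating types) with genotype pla1-WT::kanMX. The mutant strain, AGP259, is h- with genotype pla1-Y86D::kanMX, a change in the active site of the nuclear poly(A) polymerase Pla1. Both strains carry the kanMX drug marker, each genotype is represented by 1 strain, and each strain by 3 libraries. The series concerns the rise of Mmi1 and MTREC target mRNAs in this mutant, whereas the genes described here encode the machinery and not its targets.

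Meiotic genes are transcribed at a low level in vegetative fission yeast, and their mRNAs are removed before they can be translated. Mmi1, a protein with a YTH RNA-binding domain, binds a short repeated motif in these transcripts and works together with Erh1. The MTREC complex, built on the zinc finger protein Red1 and the helicase Mtl1, connects the bound RNA to the nuclear exosome, which degrades it. The removal also uses the poly(A) tail, which Pla1 adds and which the nuclear protein Pab2 binds.

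Library totals ranged from 17594840 to 21849845 counts. The series' design text calls the 3 libraries of a strain replicate experiments without saying whether separate cultures were grown, so a p-value here is set against variation among libraries that could be technical. Levels are given as CPM, the count of a feature relative to the TMM-scaled library total (TMM corrects for differences in RNA composition). Within a strain the level of each of the 10 genes varied little, with coefficients of variation from 0.841% to 4.06%. Differences between the strains were tested by edgeR's quasi-likelihood test, with Benjamini-Hochberg adjustment over the 6267 features tested and a threshold of 0.05. The RNA comes from whole cultures, so a change in all cells and a larger change in some of them cannot be told apart. The libraries hold poly(A)+ RNA and the mutation is in a poly(A) polymerase. A change in the amount of an mRNA and a change in its recovery as poly(A)+ RNA therefore cannot be told apart. Rises and falls given here are those of poly(A)+ RNA.

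The 10 mRNAs did not move together. Red5 and red1 rose in pla1-Y86D. The mRNAs of cbc1, rmn1, nrl1, mmi1 and iss10 fell, though the call of iss10 was lost in some alternative fits. The other 3, erh1, mtl1 and pab2, did not pass the test. Of all features tested 81.2% were called, 40.1% higher and 41.1% lower, and 81.9% had libraries of the strains that did not overlap. Of the 4998 protein-coding features 1780 were higher, 2336 lower and 4155 without overlap. Among the 10 genes 2 were higher, 5 lower and 7 without overlap. Calls were thus common everywhere, and whether these counts depart from the background was not tested. No member changed by as much as 2-fold, a size reached with a call upward by 9.02% and downward by 2.38% of all features. Called or not, it was reached by 717 of all 6267 features and by 334 of the 4998 protein-coding ones, the class of all 10 members. The median log2 fold change of the 10 was -0.05, against -0.0047 over all features and -0.05 over the 4998 protein-coding features tested. The median size of the change was 0.27, against 0.31 over all features and 0.27 over protein-coding ones.

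**Figure D1:**
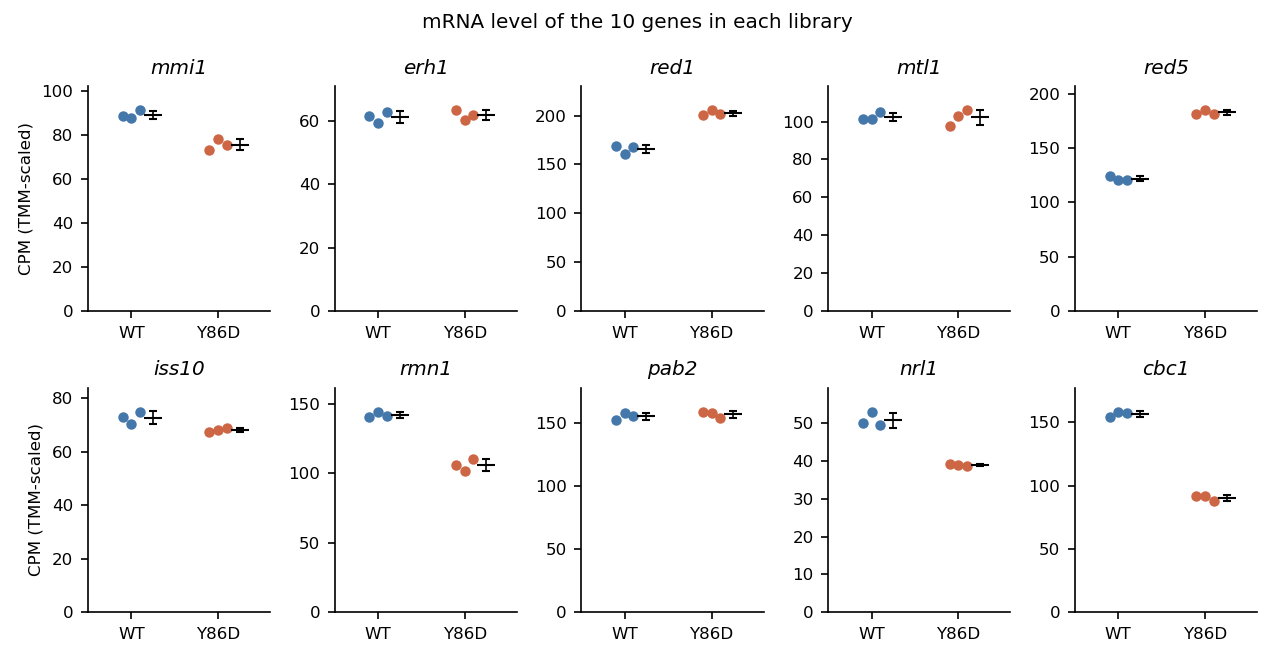
Level of each of the 10 mRNAs (CPM, TMM-scaled, axis from 0) in the 3 pla1-WT and the 3 pla1-Y86D libraries; points are libraries, and the dash with its bar is the mean ± SD. The strains separate most for cbc1 (156.7 against 90.5 CPM) and red5 (121.9 against 182.8 CPM), and their libraries mix for erh1, mtl1 and pab2.

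The mRNA of mmi1 (SPCC736.12c), the RNA-binding protein that selects the meiotic transcripts, was at 88.7, 87.8 and 91.3 CPM in the pla1-WT libraries and at 73.2, 78.3 and 75.2 CPM in the pla1-Y86D libraries. Every mutant library was below every control library. The level went from 89.2 ± 1.8 to 75.6 ± 2.6 CPM (SD, n = 3 per strain). On the log2 scale the change was -0.24, with an SE of 0.035 and an adjusted p of 1.6e-07 by edgeR, a level 0.847 times that of the control. The size is modest beside the rest of the transcriptome, as 1818 features had a lower value.

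Erh1 (SPAC19G12.17), the small homologue of enhancer of rudimentary that pairs with Mmi1, was at 61.7, 59.2 and 62.7 CPM in pla1-WT and at 63.4, 60.3 and 61.9 CPM in pla1-Y86D. The libraries of the strains overlapped. The log2 fold change was 0.02 (95% interval -0.06 to 0.09, edgeR adjusted p = 0.707). A change of more than 0.095 on the log2 scale in either direction lies outside this interval, which holds for TMM scaling over all features. With protein-coding features alone the log2 fold change was 0.07 (edgeR adjusted p = 0.0935).

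Red1 (SPAC1006.03c), the zinc finger scaffold of MTREC, was at 168.6, 160.8 and 167.8 CPM in pla1-WT and at 201.0, 205.7 and 201.2 CPM in pla1-Y86D. All mutant libraries were above all control libraries. This is a log2 fold change of 0.29 with an SE of 0.026, at an adjusted p of 3.4e-12 by edgeR, or 1.22 times the control level. The red1 gene overlaps asa1, an ASTRA complex gene on the other strand, in the reference annotation, and asa1 stood at -0.19 on the same scale (edgeR adjusted p = 0.000326).

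Mtl1 (SPAC17H9.02), the Mtr4-like helicase of the same core, was at 101.2, 101.6 and 104.9 CPM in pla1-WT and at 97.9, 102.9 and 106.1 CPM in pla1-Y86D. The mutant libraries lay on both sides of the controls. The log2 fold change was -0.0023 (95% interval -0.07 to 0.06, edgeR adjusted p = 0.95). The mtl1 gene overlaps cid16, a poly(A/U) polymerase gene on its own strand, at -0.85 (edgeR adjusted p = 1.4e-16), and rdl1 on the other strand, at 0.32 (edgeR adjusted p = 1.1e-07).

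Red5 (SPBC337.12), the CCCH zinc finger subunit, showed the largest increase of the 10. It was at 124.5, 120.3 and 121.0 CPM in pla1-WT and at 181.8, 185.0 and 181.7 CPM in pla1-Y86D. The groups were far apart compared with their own spread. The level rose from 121.9 ± 2.2 to 182.8 ± 1.9 CPM (SD, n = 3 per strain). EdgeR put the log2 fold change at 0.58, its SE at 0.027 and the adjusted p at 4.7e-20, which is 1.5 times the control level. Among all features 1016 had a higher value, 487 of them protein-coding.

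Rmn1 (SPBC902.04), an RNA-binding subunit of MTREC, was at 140.9, 144.5 and 141.2 CPM in pla1-WT and at 106.4, 102.0 and 110.6 CPM in pla1-Y86D. All mutant libraries were lower. On the log2 scale the change was -0.42, with an SE of 0.031 and an adjusted p of 2.1e-14 by edgeR, a level 0.749 times that of the control. Rmn1 overlaps idh2, the gene of an isocitrate dehydrogenase subunit on the other strand, which was at 0.41 on the same scale (edgeR adjusted p = 5.0e-16).

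Iss10 (SPAC7D4.14c, also named Pir1), a proline-rich subunit that links Mmi1 to Red1, was at 73.1, 70.2 and 75.0 CPM in pla1-WT and at 67.4, 68.3 and 68.9 CPM in pla1-Y86D. The groups did not overlap, but the gap between them was small. This is a log2 fold change of -0.09 with an SE of 0.037, at an adjusted p of 0.0209 by edgeR. The call was lost under DESeq2 (adjusted p = 0.108), with protein-coding features alone (log2 fold change -0.04, edgeR adjusted p = 0.332), without pla1-WT replicate 3 (-0.07, edgeR adjusted p = 0.0991) and without pla1-Y86D replicate 1 (-0.09, edgeR adjusted p = 0.0601). In the authors' deposited table iss10 did not pass either (adjusted p = 0.103), and it is the member for which that table and the edgeR fit gave different calls. The other 9 had the same call in both.

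Pab2 (SPBC16E9.12c), the nuclear poly(A)-binding protein, was at 152.4, 157.8 and 155.4 CPM in pla1-WT and at 158.9, 157.9 and 153.6 CPM in pla1-Y86D. The libraries of the strains overlapped. The log2 fold change was 0.01 (95% interval -0.04 to 0.07, edgeR adjusted p = 0.652), and it was 0.07 (edgeR adjusted p = 0.0213) when protein-coding features alone were tested. That setting moved the median of all features it tested by 0.05. The pab2 locus holds a pair of noncoding features that overlap the gene and rose at least 2-fold. The antisense RNA pab2-antisense-1 went from 4.4 ± 0.76 to 9.44 ± 0.31 CPM (SD, n = 3 per strain; log2 fold change 1.11, edgeR adjusted p = 3.0e-10). SPNCRNA.1479, on the strand of pab2 and annotated as a possible alternative UTR, went from 1.41 ± 0.24 to 3.78 ± 0.28 CPM (log2 fold change 1.42, edgeR adjusted p = 2.1e-08). Both were at a small share of the level of pab2 itself. Whether the authors counted with strand is not stated in the labels, so reads of pab2 and of these features cannot be told apart with certainty.

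Nrl1 (SPBC20F10.05), the orthologue of human NRDE2 and a partner of Mtl1, had the lowest level of the 10 per kilobase of transcript. In CPM it was at 49.9, 52.9 and 49.3 CPM in pla1-WT and at 39.2, 38.8 and 38.6 CPM in pla1-Y86D. The mutant libraries were all lower and lay close together. EdgeR put the log2 fold change at -0.38, its SE at 0.044 and the adjusted p at 1.2e-09, a level 0.766 times that of the control.

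Cbc1 (SPAC6G10.07), the large subunit of the complex that binds the cap of nuclear RNA, showed the largest decrease of the 10. It was at 154.0, 158.6 and 157.6 CPM in pla1-WT and at 92.1, 91.7 and 87.8 CPM in pla1-Y86D. The libraries of the strains stood well apart. The level fell from 156.7 ± 2.4 to 90.5 ± 2.4 CPM (SD, n = 3 per strain), to 0.577 times the control. On the log2 scale the change was -0.79, with an SE of 0.03 and an adjusted p of 1.5e-22 by edgeR. Of the features tested 274 had a lower value, and 202 of those were protein-coding. The gene overlaps idp1, an isocitrate dehydrogenase gene on its own strand, which was at -0.26 on the same scale (edgeR adjusted p = 1.9e-11).

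**Figure D2:**
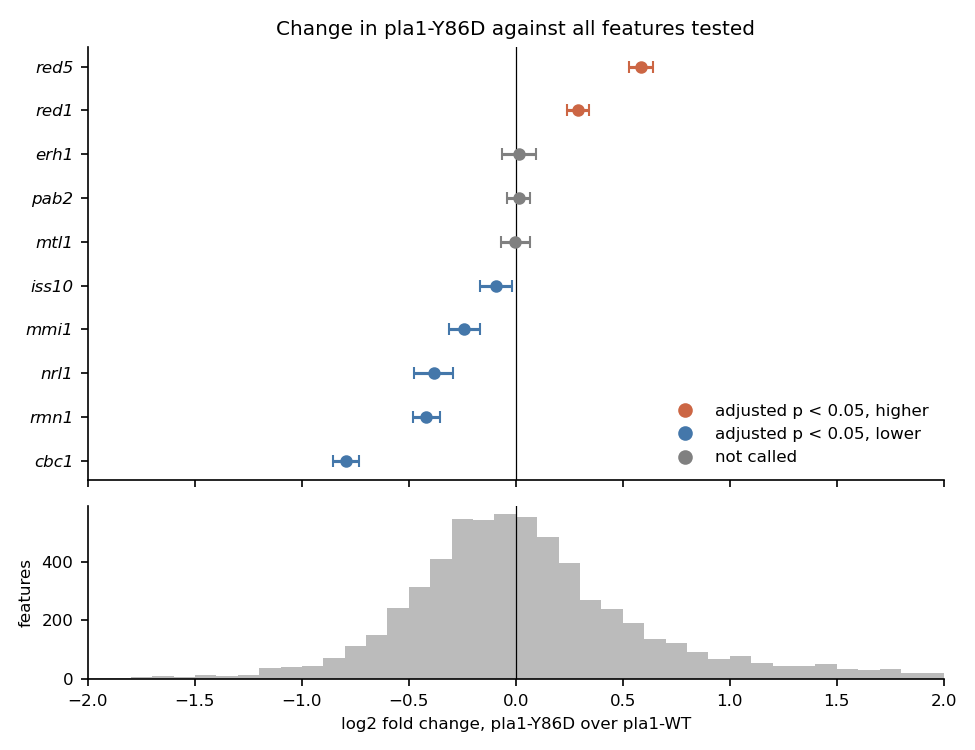
Upper panel: log2 fold change of each of the 10 mRNAs, pla1-Y86D over pla1-WT, with its 95% interval from the edgeR fit (n = 3 per strain); lower panel: number of features per bin of the same axis over all features tested, without 157 features beyond 2 in size. The members run from -0.79 (cbc1) to 0.58 (red5); 274 features lie below cbc1 and 1016 above red5.

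Ratios of partner mRNAs within a library do not depend on how libraries are scaled. Cbc1 and Cbc2 form the cap-binding complex, in which the small subunit Cbc2 contacts the cap. The log2 ratio of cbc1 to cbc2 counts was 0.42, 0.49 and 0.45 in pla1-WT and -0.46, -0.53 and -0.61 in pla1-Y86D. Cbc1 counts were thus above cbc2 counts in every control library and below them in every mutant library. Counts were not divided by transcript length here, so this does not order the amounts of these mRNAs. The difference of the means was -0.99, so that the ratio in the mutant was 0.504 times that in the control. Part of it came from cbc2, which rose from 114.3 ± 1.5 to 131.1 ± 3.5 CPM (SD, n = 3 per strain; log2 fold change 0.20, edgeR adjusted p = 2.8e-07).

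The log2 ratio of erh1 to mmi1 was -0.52, -0.57 and -0.54 in pla1-WT and -0.21, -0.38 and -0.28 in pla1-Y86D. The difference of the means was 0.26, and the groups did not overlap. The log2 ratio of red1 to mtl1 was 0.74, 0.66 and 0.68 in pla1-WT and 1.04, 1.0 and 0.92 in pla1-Y86D. Its difference was 0.29, again without overlap. For each of the 3 ratios the two-sided exact permutation p was 0.1 (0.1 after adjustment over the 3), the smallest that 3 libraries against 3 allow, so none could pass 0.05.

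**Figure D3:**
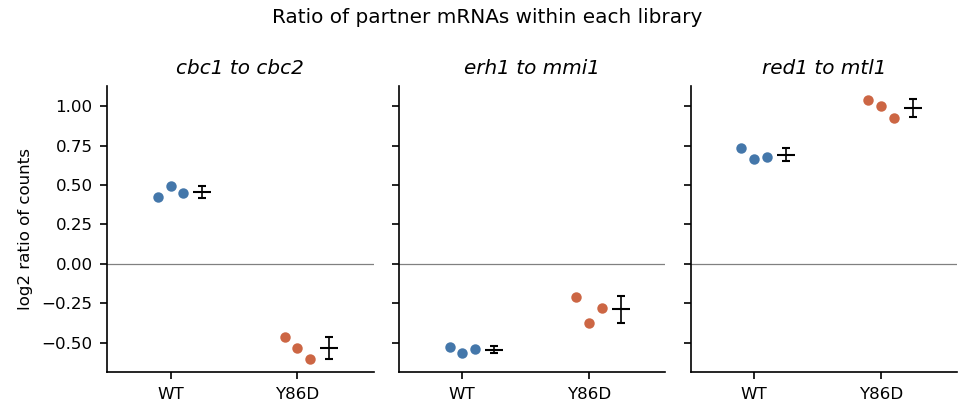
Log2 ratio of the counts of partner mRNAs in each library of pla1-WT and pla1-Y86D; points are libraries, the dash with its bar is the mean ± SD, and the line at 0 marks equal counts. The cbc1 to cbc2 ratio crosses 0 between the strains (mean 0.45 against -0.53), while the other ratios keep their sign. Counts are not divided by transcript length, so 0 does not mark equal mRNA amounts.

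Levels of different genes were compared as CPM per kilobase of the annotated transcript, taken from the RefSeq annotation of assembly ASM294v3. In pla1-WT the order from high to low was erh1, pab2, red5, red1, rmn1, cbc1, iss10, mmi1, mtl1 and nrl1. Erh1 was at 194.2 ± 5.6 CPM per kilobase (SD, n = 3), but its annotated transcript, of 315 bases, has no UTR, so its value per kilobase may be too high and its place in the order is uncertain. Pab2 was at 123.6 ± 2.1, mmi1 at 32.4 ± 0.66, mtl1 at 30.1 ± 0.59 and nrl1 at 16.2 ± 0.63 CPM per kilobase, beside a median of 41.4 over 4998 protein-coding genes. Red5 (69.6 ± 1.3) overlapped red1 (67.8 ± 1.8), and red1 overlapped rmn1 (65.1 ± 0.92), so the order of these neighbours was not resolved in the control.

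In pla1-Y86D the corresponding levels per kilobase were 104.3 ± 1.1 for red5, 82.8 ± 1.1 for red1 and 48.7 ± 2.0 for rmn1, without overlap. Thus these 3 MTREC mRNAs, of like level in the control, were spread over a wider range in the mutant. Cbc1 went from 55.2 ± 0.85 to 31.9 ± 0.84 CPM per kilobase and moved below iss10, to a level that overlapped mtl1 (30.1 ± 1.2). Mmi1 (27.4 ± 0.93) lay below mtl1 in pla1-Y86D and above it in pla1-WT, without overlap in either strain. The spread between libraries leaves out error in the annotated lengths and in counts of overlapping genes, such as mtl1 with cid16 and rdl1. The order of genes close in level is therefore uncertain, also where their libraries did not overlap.

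Partners of the 10 proteins were read from lists, which are described by counts and medians. Of all features tested 40.1% were called higher and 41.1% lower, with a median log2 fold change of -0.0047. Of the 4998 protein-coding features 1780 were higher and 2336 lower, with a median of -0.05. Whether any list departs from these shares was not tested. Of the MTREC and cap-binding partners, pir2, cbc2, ctr1 and pla1 were tested, and all 4 were higher, with a median log2 fold change of 0.29. Pir2 (SPBC725.08), the zinc finger orthologue of human ARS2, went from 127.2 ± 2.4 to 138.8 ± 1.9 CPM (SD, n = 3 per strain; log2 fold change 0.12, edgeR adjusted p = 0.000172). Ctr1 (SPAC140.04), annotated as a telomerase regulatory factor, rose by 0.60 on the log2 scale (SE 0.052, edgeR adjusted p = 1.2e-12). The pla1 mRNA itself was at 0.37 (edgeR adjusted p = 2.6e-09). The list's entry pir1 is the same gene as iss10, a member, and is not among these 4 or in their median. It was called lower (log2 fold change -0.09, edgeR adjusted p = 0.0209), so not every entry of the list was higher. Cbc3 (SPCC16C4.16c), annotated as a variant subunit of the cap-binding complex, was added after its value was seen. It went from 61.0 ± 2.5 to 83.3 ± 0.95 CPM (log2 fold change 0.45, edgeR adjusted p = 3.4e-13), so cbc1 was the cap-binding gene that fell among the 3.

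Exosome subunits and the TRAMP complex, a polyadenylating helper of the exosome, had 0 of 15 members higher and 10 lower, with a median of -0.19. The shares over all features were 40.1% higher and 41.1% lower, and the list was not tested against them. The largest decrease in the list was that of cti1 (SPCC1739.07), the C1D family subunit, from 71.2 ± 0.95 to 31.7 ± 1.2 CPM (SD, n = 3 per strain; log2 fold change -1.17, edgeR adjusted p = 5.0e-23). The exosome genes rrp46 and rrp41 were at -0.68 and -0.46, and the TRAMP zinc knuckle gene air1 at -0.57. The helicase gene mtr4, whose product resembles Mtl1, was at -0.42 (edgeR adjusted p = 6.6e-17), while mtl1 was near 0. The call of 1 of the 10, cid14 (-0.08, edgeR adjusted p = 0.0189), was lost under DESeq2 (adjusted p = 0.102), with protein-coding features alone, and without pla1-WT replicate 2 or pla1-Y86D replicate 2. The remaining 5 had log2 fold changes from -0.07 (rrp4) to 0.07 (mtr3), and 4 of them were called under some alternatives. Mtr3 was called higher with RLE size factors (edgeR adjusted p = 0.0323), by limma-voom (adjusted p = 0.0496), with protein-coding features alone (edgeR adjusted p = 0.000824) and without pla1-WT replicate 3 (edgeR adjusted p = 0.0328). Csl4 and rrp6 were called higher with protein-coding features alone (edgeR adjusted p = 0.0018 and 0.0329), so that the count of higher genes was 3 there. Rrp4 was called lower with library totals alone (edgeR adjusted p = 0.019), with no filter (0.0474) and without pla1-WT replicate 1 (0.0469).

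The CCR4-NOT complex shortens poly(A) tails and binds Mmi1. Of its 8 genes 3 were higher and 5 lower, with a median of -0.15, while 81.2% of all features were called, 40.1% higher and 41.1% lower. The scaffold gene not1 went from 142.7 ± 3.0 to 86.1 ± 2.0 CPM (SD, n = 3 per strain; log2 fold change -0.73, edgeR adjusted p = 4.0e-21). The deadenylase gene ccr4 was at -0.45 and not3 at -0.38, whereas mot2, of a ubiquitin ligase, was at 0.22. The call of caf1 (0.08, edgeR adjusted p = 0.0211), 1 of the 3, was lost under DESeq2 (adjusted p = 0.0603), with library totals alone, and without pla1-WT replicate 1, pla1-Y86D replicate 2 or pla1-Y86D replicate 3.

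Mmi1 is held inactive in meiosis by the RNA-binding protein Mei2 together with the lncRNA sme2. Of 4 genes of this branch 2 were higher and 1 was lower, beside 40.1% higher and 41.1% lower of all features. Mei2 was at 6.44, 7.56 and 8.39 CPM in pla1-WT and at 6.47, 6.91 and 8.23 CPM in pla1-Y86D. The libraries overlapped, and the log2 fold change was -0.05 (95% interval -0.28 to 0.19, edgeR adjusted p = 0.712). Sme2 rose by 1.83 (edgeR adjusted p = 1.9e-32), and mei3, an inhibitor of the kinase Pat1, by 1.78 from a mean of 0.475 CPM. Pat1, which inhibits Mei2, was at -0.45 (edgeR adjusted p = 3.0e-08).

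**Figure D4:**
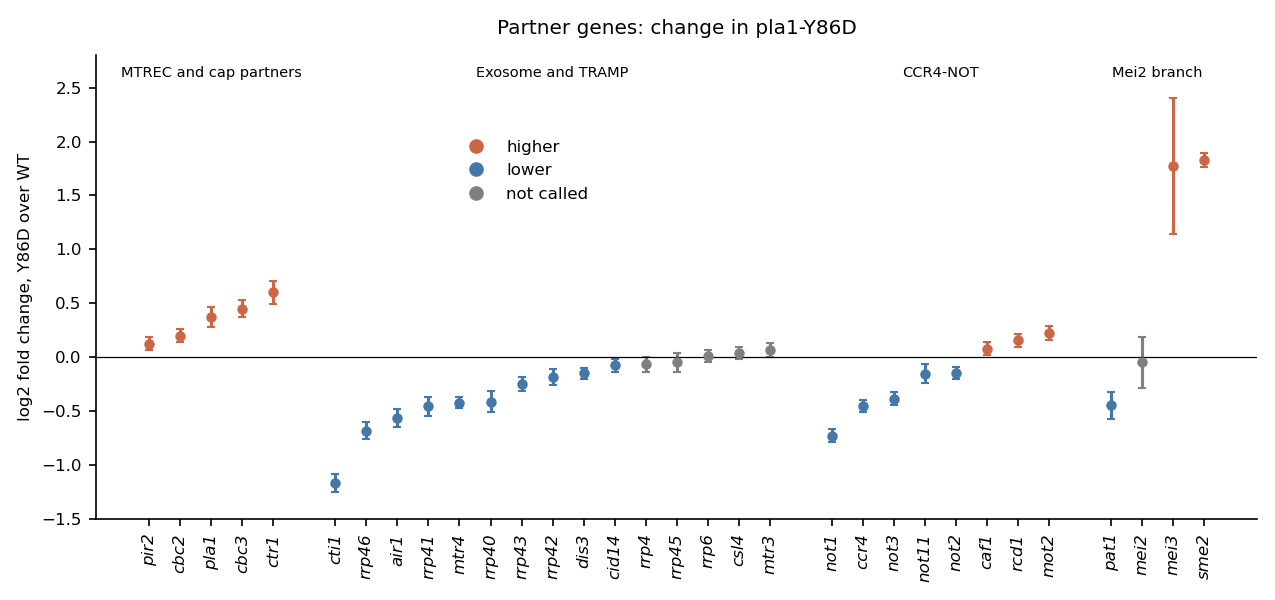
Log2 fold change, pla1-Y86D over pla1-WT, of partner genes of the machinery with 95% intervals from the edgeR fit (n = 3 per strain); colours mark calls at an adjusted p of 0.05. MTREC and cap partners, with cbc3, lie between 0.12 and 0.60, exosome and TRAMP genes between -1.17 and 0.07, CCR4-NOT genes between -0.73 and 0.22, and mei3 and sme2 near 1.8. Iss10, listed among the MTREC partners as pir1, is a member and is not drawn here (-0.09).

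As a marker of cells of the other mating type, map1, map2 and map3 were measured, and their summed level was 23.5 to 24.0 CPM in pla1-WT and 21.7 to 24.0 CPM in pla1-Y86D. Of the 3, 2 were higher (map1 0.32, map2 0.58) and map3 was lower (-0.69), beside 40.1% higher and 41.1% lower of all features. No marker of this list was at 0, its mat1-P genes are not analysed here, and the list's part in the results was not tested.

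The neighbours of the 10 genes were read from the order of genes in the same RefSeq annotation. Of 27 counted features that adjoin or overlap a member, 12 were higher, 10 were lower and 5 were not called, shares near the 40.1% higher and 41.1% lower of all features. Besides the noncoding pair at pab2, psp3, a vacuolar protease gene downstream of red1 on the other strand, changed at least 2-fold. It rose from 159.1 ± 5.3 to 440.5 ± 16 CPM (SD, n = 3 per strain; log2 fold change 1.47, edgeR adjusted p = 2.7e-29). Beside red5 both neighbours were higher, SPBC337.11 by 0.82 and the GTPase gene gtr1 by 0.44. Rmn1 has lower neighbours on its own strand, nem2 at -0.55 and mto2 at -0.56, and a higher one in idh2. Neither neighbour of nrl1, nse4 (0.03) or mad2 (0.06), was called. The neighbours of mmi1 went opposite ways, as SPCC736.13, a short chain dehydrogenase gene upstream on its strand, was at 0.73 and the argonaute gene ago1, downstream on the other strand, was at -0.31. Over the 7 called members, 10 of 17 neighbours were called in the member's direction, 4 in the opposite one and 3 not at all. Of all features 81.2% were called, 40.1% higher and 41.1% lower. The 7 include iss10, whose call was lost under some alternatives. Whether neighbours share a member's direction more often than other features was not tested.

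The RNA motif bound by Mmi1, written in DNA letters as TNAAAC, was counted on the sense strand of each member's annotated transcript. It occurred in 9 of 10 members, all but erh1, whose model has no UTR, and in 89.4% of 5111 protein-coding transcripts. Red1 held 10 copies in 2446 bases, mmi1 held 8 in 2753 and iss10 held 7 in 1977. Rmn1 held 1 copy in 2184 bases. Over the 10 transcripts there were 2.27 copies per kilobase on the sense strand and 2.04 on the other, against 1.77 and 1.97 over all transcripts. The form TTAAAC, contained in TNAAAC, occurred in 4 members (mmi1, iss10, cbc1 and red5), and in 49.4% of all transcripts. Such a match is a description of the letters and not of binding. The genes with the form TTAAAC included red5, which rose, and 3 that were called lower. Of these 3, iss10 lost its call under some alternatives.

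The protein-coding genes most like red5 over the 6 libraries, by the root-mean-square difference of log2 CPM centred on the pla1-WT mean, were phb2, idh1 and odr1, at 0.011, 0.011 and 0.019. Phb2 encodes a prohibitin and idh1 an isocitrate dehydrogenase subunit. Those most like cbc1 were nop2, cyt2 and dri1, at 0.023, 0.024 and 0.025. Nop2 encodes an rRNA methyltransferase, cyt2 a haem lyase, and dri1, the gene downstream of mtl1, an RNA-binding protein of heterochromatin assembly. With 1 comparison of 2 strains, this likeness mostly measures an equal fold change.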

How the data were processed

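RNA for 3 pla1-WT and 3 pla1-Y86D libraries was purified with hot acid phenol, and poly(A)+ RNA was sequenced as stranded paired ends, per the labels' protocols. The authors deposited whole-number counts per feature, without normalization. Build ASM294v2 is named in the submitters' processing notes, as are HISAT2 2.1.0, HTSeq 0.10.0, SAMtools, DESeq and DESeq2. No label or header states the strand setting or what was done with reads that align in several places, so counts of overlapping features are uncertain. A second deposited file compares the strains by DESeq2. Its signal columns are mean normalized counts over all libraries and per strain, as deposited by the authors. Its log2 columns hold the authors' fold change and standard error. Its Wald statistic is a score, per the file headers. Its p-value columns are the authors' raw and adjusted values.

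Tests on the counts used edgeR 4.0.16 under R 4.3.3 (filterByExpr, TMM, robust quasi-likelihood fit, strain as the only term, all 6 libraries). The steps were run on simulated counts in which far fewer features changed than in these data. That run does not check the scaling where most features change. Standard errors and 95% intervals follow from each fold change with its F value. Ratios were compared by an exact permutation test in scipy 1.17.1. Alternatives were DESeq2 1.42.0, limma-voom (limma 3.58.1), other scalings, no filter, protein-coding features alone, a replicate block and leaving out each library. No pair of libraries of a strain was a duplicate (chi-square of 1.63 to 4.83 for each degree of freedom). Intervals cover only the spread between libraries.

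Of 6988 features 6848 (98.0%) matched RefSeq assembly ASM294v3, a later build than the authors' ASM294v2. It served for names, classes, neighbours, transcript lengths and motif counts from its own transcript models, and none of its coordinates are printed. The members and lists were chosen with earlier results of these data known. All 10 members are named. From each list up to 4 called genes with the largest change are named, with cbc2, pir2 and pla1. Further genes are named, after their values were seen, where a call was lost or a range needed its ends, and mtr4 and mei2 for their link to members. Neighbours called at 2-fold or more are named, others where a locus is described. For the member with the largest increase and the one with the largest decrease, the 3 most alike genes are named.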

Additional observations from a re-analysis of the deposited data

How the results depend on the processing

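Over 13 alternatives the members gave 130 values. Of these 125 kept their call or lack of one. The exceptions were iss10, whose call was lost with protein-coding features alone (log2 fold change -0.0385), under DESeq2 (-0.0866) and without 2 of the libraries (from -0.1193 to -0.072 over all 6 left out in turn), and pab2, which was called at 0.0677 with protein-coding features alone. The cause was not tested. The numbers of members higher (2 or 3) and lower (4 or 5) moved accordingly. Of 34 matched list genes 28 were called, and 26 to 29 under the alternatives. In the main fit 81.2% of all features were called, so 28 of 34 is near that share. The count of called features was 5086, and it ran from 4112, where 4998 protein-coding features were tested, to 5162, with 46.7% to 50.1% of the calls higher. Values near 0 changed sign without being called, as erh1 did between -0.01 and 0.07 and mtl1 between -0.03 and 0.05.

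Same-numbered libraries did not deviate together (r from -0.10 to 0.04 over 5832 features), so the numbers were not taken as pairs. With the replicate block 5057 features were called and each member kept its call or lack of one. Ratio differences with 1 library left out ran from -1.02 to -0.95 for cbc1 to cbc2, from 0.22 to 0.30 for erh1 to mmi1, and from 0.27 to 0.33 for red1 to mtl1. The block gave an exact permutation p of 0.25 for each, the smallest that 3 pairs allow. Levels are shares of a library, so a rise or fall common to nearly all transcripts is invisible here.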
